A study of Arabidopsis thaliana with 8 samples.

Results

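Nectaries are small glands at the base of the stamens that release the sugary reward of a flower. In Arabidopsis the lateral nectaries, beside the short stamens, make most of the nectar, and the median ones, beside the long stamens, make little or none. On the way to secretion a lateral nectary stores starch, breaks it down when the flower opens, makes sucrose and exports it through the transporter SWEET9, and the sucrose is then split in the cell wall by the invertase cwINV4. The genes described here are those whose signal was high in both kinds of mature nectary and low in the young lateral gland.

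Each of 8 Affymetrix ATH1 arrays held 1 pool of hand-dissected nectaries of soil-grown Columbia-0 plants that were 30 to 35 days old. Mature lateral nectaries (MLN, secretory, 3 pools) and mature median nectaries (MMN, not secreting, 2 pools) came from flowers at stages 14 to 15. Immature lateral nectaries (ILN, not yet secreting, 3 pools) came from flowers at stages 11 to 12. Pools held about 250 to 300 nectaries from different plants under 16 h of light and 8 h of dark, dissected over several days between 4 and 8 h after dawn, and 500 ng of total RNA was amplified for the lateral pools but 250 ng for the median ones. There was no immature median pool. Values are linear signal intensities, and the median of every array is 100.

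A probe set, the group of probes on the array that reports on 1 transcript, was a member where its lowest signal on the 5 mature arrays was at least 3 times its highest on the ILN arrays. The larger of its MMN and MLN means also had to be under 3 times the smaller. Of 22746 probe sets other than the array controls, 158 passed the first condition and 153 both. Leaving out 8 genes (GPAT5, XTH24, CDEF1, MYB115, PAL1, PAL2, PAL4 and GA2OX6) gave 145 members, 0.637% of the array. The same fold turned round, with every ILN array at least 3 times above every mature one, was met by 102 probe sets. Complete separation without the fold was common, since 19.4% of all probe sets had every mature array above every ILN array. Members were thus chosen by their signals on these arrays, so their values are given below as a description and no test is attached to them.

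125 members are assigned to exactly 1 gene, 57 by the platform annotation and 68 by the gene tables published with the study. Of these last, 59 appear only in tables that the study compiled by signal on these arrays. 10 members match several genes and 10 have no gene in either source. A member with a locus code here carries no other symbol in the gene table used.

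The signals of members ranged widely, and 143 members were above the array median on every mature array. Their means over the mature arrays ran between 94.4 and 15233, with a median of 1011, against ILN means between 15.1 and 1595, with a median of 102. 62 members were above the array median on every mature array and below it on every ILN array. The lowest mature array exceeded the highest ILN array by a median of 4.31 times. That ratio was under 5 for 94 members, at least 10 for 14 and at least 20 for 4. The scatter of extremes shows the members as the thin upper edge of the array.

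**Figure D1:**
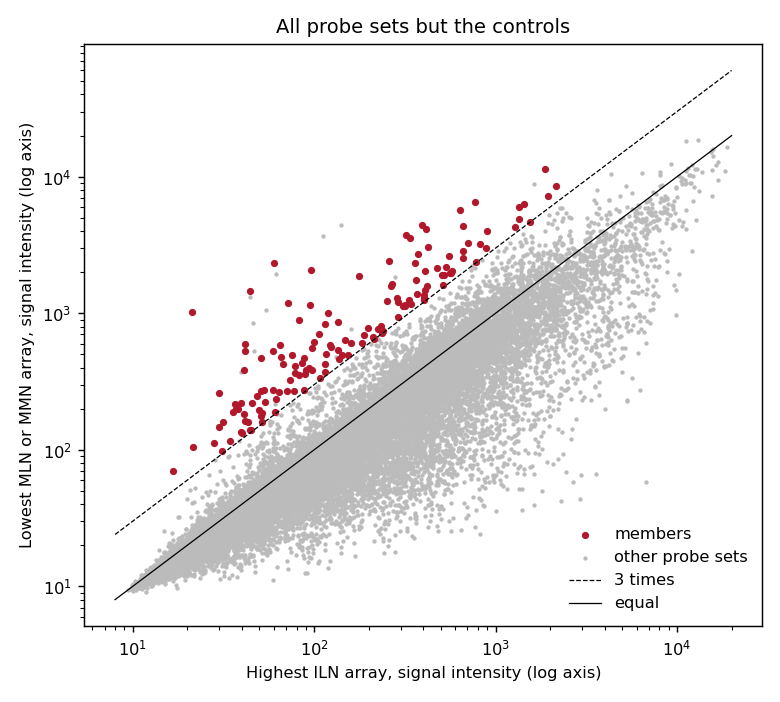
Lowest signal on the 5 mature arrays (vertical, log axis) against the highest on the 3 ILN arrays (horizontal, log axis) for 22746 probe sets. The 145 members (red) lie on or above the dashed line of 3 times, and grey points above that line are the 5 probe sets stopped by the limit on the MMN and MLN means and the 8 genes left out by name.

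The widest gap belonged to CYP71B31, a cytochrome P450 monooxygenase. Its signal was 1351, 1326 and 1026 in MLN and 2593 and 2371 in MMN, against 15.5, 21.4 and 18.0 in ILN. The ILN values are close to the lower end of the arrays, where probe sets reach 8.30 to 9.27, and both MMN arrays stood above all MLN arrays. At1g35190, of the family of oxygenases that use 2-oxoglutarate and iron, had 3281, 2325 and 2702 in MLN and 3151 and 2719.9 in MMN, against 60.4, 43.3 and 29.7 in ILN. Here the mature groups overlapped, and the ratio of the MMN to the MLN mean was 1.06. scpl41, a serine carboxypeptidase-like protein, had 1829, 1888 and 3420.3 in MLN and 1464 and 1638 in MMN, against 44.2, 27.4 and 23.1 in ILN. MLN 3 stood far above the other mature ones. These 3 genes were the only members with a ratio of lowest mature to highest ILN array of at least 30, at 48.0, 38.5 and 33.1 in that order.

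**Figure D2:**
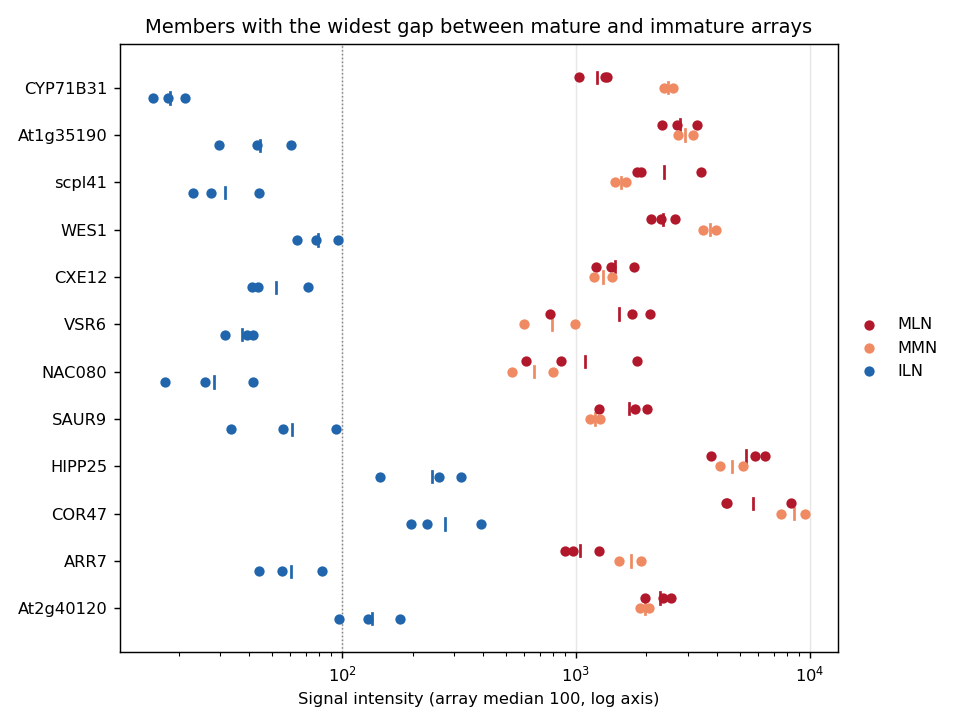
Signal on each array (log axis) of the 12 single-gene members with the largest ratio of lowest mature to highest ILN array. Points are arrays, vertical ticks are group means of 3 MLN, 2 MMN and 3 ILN arrays, and the dotted line is the array median of 100. The ILN points of 9 genes lie wholly left of that line, and those of HIPP25 and COR47 lie wholly right of it.

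The hormone and growth genes among the members (14, of which 11 were below the array median on every ILN array) were led by WES1, also called GH3.5. It joins auxin to amino acids and so lowers the free hormone. WES1 gave 2649.7, 2091 and 2299 in MLN and 3972 and 3486 in MMN, against 96.2, 76.9 and 63.9 in ILN, with both MMN arrays above every MLN array. SAUR genes, a large family of early auxin-response genes of which several promote cell expansion, had 3 members. SAUR9 had 1792, 2012 and 1257 in MLN and 1149.8 and 1262 in MMN, against 33.3, 94.5 and 55.7 in ILN. The SAUR genes At3g61900 and At4g12410 had the lowest MMN to MLN ratios of the hormone and growth members. For At3g61900 the signals were 384, 646 and 306 in MLN and 235 and 199 in MMN, against 25.3, 38.2 and 22.4 in ILN. At4g12410 read 886, 909 and 797 in MLN and 571 and 459.8 in MMN, against 114, 137 and 59.1 in ILN. Both MMN arrays of each lay below all MLN arrays, and the MMN mean was 0.487 and 0.597 times the MLN mean. NPY3, of a family that works with auxin in organ formation, had 872, 1044 and 668 in MLN and 646 and 528 in MMN, against 54.4, 59.4 and 58.1 in ILN. ARGOS, an auxin-inducible promoter of organ growth, had 474, 222 and 253 in MLN and 395 and 604 in MMN, against 39.5, 37.3 and 28.9 in ILN.

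The cytokinin side held ARR7 and ARR6, type-A response regulators, which cytokinin induces and which damp its signal. ARR7 had 975, 895 and 1256 in MLN and 1903 and 1526 in MMN, against 82.0, 55.3 and 43.9 in ILN. For ARR6 the values were 268, 479 and 488 in MLN and 873 and 529 in MMN, against 58.5, 71.0 and 48.9 in ILN. In both genes each MMN array was above every MLN array, by little in ARR6. CYCD3;3, a D-type cyclin that cytokinin promotes, ran the other way between the mature types, with 3191, 1975 and 2045 in MLN and 1817 and 1469.8 in MMN, against 406, 364 and 361 in ILN. Its ILN arrays were nearly equal, with the highest 1.12 times the lowest. GA20OX2, which makes precursors of active gibberellin, had 1003, 773 and 571 in MLN and 1486 and 943 in MMN, against 124, 104 and 51.8 in ILN. BR6OX2, which makes brassinolide, had 417, 413 and 393 in MLN and 504 and 365 in MMN, against 51.6, 70.5 and 78.0 in ILN. PSK4, a precursor of the growth peptide phytosulfokine, was the dimmest of these members in ILN, with 146, 105 and 152 in MLN and 163 and 172 in MMN, against 21.6, 15.5 and 19.3 in ILN.

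Gene regulators made up 12 members, and 9 of them had a lower mean in MMN than in MLN, beside 76 of all 145 members. NAC080, a NAC-domain transcription factor, had 859, 1819 and 613 in MLN and 795 and 534 in MMN, against 41.8, 25.9 and 17.5 in ILN. Its MLN arrays differed by more than the MMN arrays did, and the MLN and MMN ranges overlapped. OBP1, a DOF factor that speeds the cell cycle when raised, had 2098, 1454 and 1959 in MLN and 725 and 895 in MMN, against 238, 135 and 106 in ILN, so that every MMN array was below every MLN array. HB-1, a class I homeodomain leucine zipper factor, showed the same order with 753, 670.5 and 840.4 in MLN and 357 and 492 in MMN, against 88.6, 68.5 and 64.1 in ILN. ZAT6, a zinc finger factor that responds to cold and phosphate starvation, was the member with the highest MMN to MLN ratio, 2.88. It gave 251, 253 and 190.1 in MLN and 599 and 734 in MMN, against 55.3, 61.1 and 46.8 in ILN.

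MYB32, a repressor in phenylpropanoid metabolism, was as high in MMN as in MLN, with 1636, 1643 and 1720.2 in MLN and 1900.5 and 1357 in MMN, against 401, 329.8 and 209 in ILN. The WRKY factors WRKY17 and WRKY27, both known as negative regulators of responses to bacteria, were members. WRKY17 had 671, 985 and 623 in MLN and 721 and 611 in MMN, against 161, 112 and 75.6 in ILN. WRKY27 had 1035, 1333 and 818 in MLN and 748 and 651 in MMN, against 200.2, 213 and 74.5 in ILN, and ILN 3 was well under the others. BBX19, a B-box protein that delays flowering, had 2433, 2933 and 2237 in MLN and 2191 and 2172 in MMN, against 125, 533 and 299.7 in ILN. Its highest ILN array was 4.27 times its lowest. IBH1, which opposes cell elongation in the brassinosteroid pathway, had the tightest ILN values of the named regulators at 35.9, 41.3 and 41.2, with 575, 483 and 384 in MLN and 419 and 433 in MMN. The other regulators were HFR1, AGL44 and TFIIB, with ratios of lowest mature to highest ILN array between 3.04 and 3.31.

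**Figure D3:**
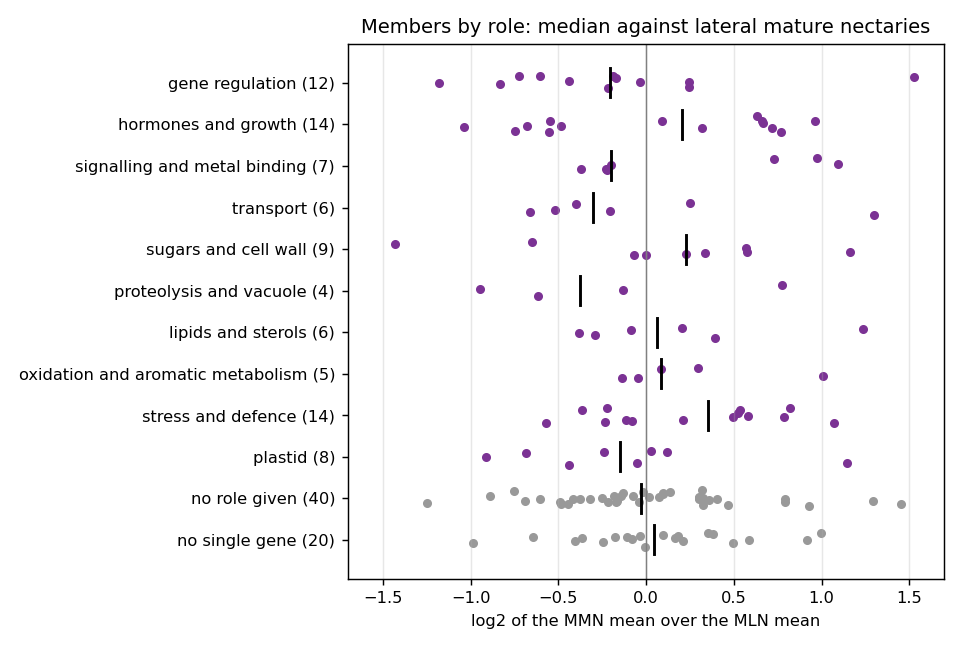
Ratio of the MMN mean to the MLN mean, on a log2 axis, for every member, by role. Points are members, black ticks are group medians and brackets give the number of members, and points right of 0 were higher in MMN. Grey rows hold members with 1 gene but no role given here and members with no single gene.

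The rule allowed the mature types to differ by up to 3 times, and members filled that range on both sides. The MMN to MLN ratio of means ran between 0.370 and 2.88 with a median of 0.977, beside a median of 0.972 over all probe sets. Both MMN arrays were above all MLN arrays for 36 members, where 11.0% of all probe sets are, and below all MLN arrays for 34, where 14.1% are. The other 75 overlapped. By role, the lowest medians were those of proteolysis and vacuole (0.782, 4 members) and transport (0.813, 6 members), and the highest was that of stress and defence (1.28, 14 members). The roles overlapped widely in the plot of ratios by role, and none was tested against another.

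The member at the low end of that ratio was BGLU17, a glycoside hydrolase of family 1 (beta-glucosidases). BGLU17 had 1636, 1257 and 1487 in MLN and 609.7 and 472 in MMN, against 51.1, 23.7 and 17.7 in ILN. The MMN arrays lay between the other groups, at 0.370 times the MLN mean and 17.5 times the ILN mean. At2g21180, of unknown function, came next with 1565, 1149.5 and 1051 in MLN and 499.8 and 558 in MMN, against 89.2, 116 and 84.1 in ILN. At the high end after ZAT6 stood At5g52390 and ABCG1, an ABC transporter known from suberin and pollen wall formation. At5g52390 read 364, 161 and 186 in MLN and 616 and 680.4 in MMN, against 44.6, 37.0 and 51.4 in ILN. ABCG1 read 4359, 2410.1 and 2452 in MLN and 8056 and 7053 in MMN, against 259.8, 230.2 and 169 in ILN. In both, every MMN array was above every MLN array.

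Transport genes numbered 6, and besides ABCG1 they included NRT1.7 and GTR2 of the NPF family. NRT1.7 loads nitrate into the phloem of old leaves, and it had 1121, 703 and 974 in MLN and 717 and 1499 in MMN, against 107, 86.1 and 45.7 in ILN. GTR2 carries glucosinolates, and it had 363, 377 and 523 in MLN and 316 and 271 in MMN, against 50.5, 51.1 and 31.6 in ILN. NRT1.7 varied more within MMN than between the mature means, while both GTR2 arrays of MMN were below those of MLN. ABCA2, another ABC transporter, had 698, 801 and 898 in MLN and 511 and 498 in MMN, against 122, 142 and 139 in ILN. The MATE efflux protein At1g51340 passed the fold most narrowly after FRA8, with 5384, 4766 and 6318 in MLN and 4819.9 and 4689 in MMN, against 329, 1544 and 849 in ILN. Its second ILN array set the ratio of 3.04. NIA1, a nitrate reductase, is an enzyme and was not counted among the 6. It had 233, 186 and 306 in MLN and 443 and 392 in MMN, against 51.7, 45.0 and 37.4 in ILN.

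Starch, sugar and wall enzymes numbered 9. BAM1, a plastid beta-amylase that degrades starch, had 3278, 4943 and 4163 in MLN and 6045 and 6243 in MMN, against 307, 709 and 684 in ILN. Both MMN arrays were above the MLN arrays. UGE2, which interconverts UDP-glucose and UDP-galactose, had 1979.5, 2325 and 2021 in MLN and 2614 and 2718 in MMN, against 482, 569 and 450.2 in ILN. TPPJ, a trehalose phosphate phosphatase, had 496, 237 and 417 in MLN and 379 and 759 in MMN, against 62.0, 49.7 and 54.3 in ILN, with wide and overlapping mature groups. Of the xyloglucan transglucosylases, which cut and rejoin wall xyloglucan, XTH4 had 276, 411 and 265 in MLN and 375 and 368 in MMN, against 48.0, 63.9 and 53.3 in ILN. XTH30 had 1929, 1306 and 1242 in MLN and 1480.1 and 1504 in MMN, against 404, 266 and 164 in ILN, and its mature means were equal to 3 digits. FRA8, which builds xylan, sat just inside the fold with 4380.1, 4131 and 3954 in MLN and 2935 and 2365 in MMN, against 779.8, 655 and 236 in ILN.

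Next to those 2 narrow members, the first genes outside the fold were Hop3, a co-chaperone, and ABCB21, an ABC transporter of auxin, both at a ratio of 2.99. The limit on the mature means stopped 5 further probe sets, and all of them were higher in MMN. They were At5g14940, NHL1, At1g20070, LEA7, a late embryogenesis abundant protein, and 1 probe set with no gene name. Their MMN to MLN ratios of means ran between 3.01 for NHL1 and 8.50 for At5g14940. The nearest member below that limit was ZAT6.

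Proteins of the vacuole and of proteolysis had the highest median ratio of lowest mature to highest ILN array of the roles (11.7), and all 4 of them were below the array median on every ILN array. That ratio also chose the members, and with 4 genes, scpl41 among them, the median describes this grouping only. VSR6 belongs to the receptors that sort proteins to the vacuole. It had 1742, 2066 and 776 in MLN and 986 and 598 in MMN, against 41.4, 39.1 and 31.5 in ILN, and the third MLN array fell among those of MMN. scpl48, the second carboxypeptidase-like member, had 786, 999.9 and 588 in MLN and 722 and 721 in MMN, against 65.1, 48.9 and 63.6 in ILN. UPI, an inhibitor of serine proteases, had 409, 362 and 261 in MLN and 729.9 and 449 in MMN, against 29.8, 23.8 and 20.1 in ILN.

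The brightest member was AAE11, an acyl-activating enzyme of short-chain fatty acids. AAE11 had 15537, 19415 and 14334 in MLN and 15502 and 11377 in MMN, against 301, 1879.8 and 685 in ILN. Its ILN arrays were the most unequal of any member, the highest being 6.24 times the lowest. Other lipid and sterol members were SQE3, a squalene epoxidase at the entry to sterols, and the lipase-like gene At5g45950. SQE3 had 6216, 5119 and 3992 in MLN and 6588 and 5196 in MMN, against 358, 898 and 739 in ILN. At5g45950 had 7644, 7537 and 7904 in MLN and 7225 and 7271 in MMN, against 1269.5, 1947 and 1313 in ILN, the narrowest mature range among the 5 brightest members. A probe set shared by a caleosin gene, At1g70670, and At1g70680 had 4801, 4078 and 5385 in MLN and 1976 and 2831 in MMN, against 564, 500.3 and 289 in ILN, and the signal cannot be assigned to either gene.

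Among the members for oxidation and for aromatic metabolism, ADT5, which makes phenylalanine, had 2637, 3069 and 4441 in MLN and 3112 and 3035 in MMN, against 101, 553 and 490.1 in ILN. The first ILN array was far below the other ILN arrays. PDS1, which makes the head group of tocopherol and plastoquinone, had 1469, 1442 and 1356 in MLN and 1513 and 1246 in MMN, against 131, 335 and 315 in ILN. FMO GS-OX5, which oxidises side chains of glucosinolates, had 1740.0, 1219.9 and 1329.8 in MLN and 1717 and 1789 in MMN, against 198, 251 and 172 in ILN. CXE12, a carboxylesterase outside these roles, had 1772, 1222 and 1417 in MLN and 1193 and 1423 in MMN, against 41.0, 43.7 and 71.5 in ILN, so its mature groups overlapped. A probe set that 2 UDP-glycosyltransferase genes share (At4g34131 and At4g34135) had 2048, 997 and 2121 in MLN and 1489.7 and 2424 in MMN, against 46.8, 120.0 and 75.8 in ILN.

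Plastid members were 8, with a median mature signal of 4434 against 393 in ILN. CHUP1, which ties chloroplasts to actin for their movement, had 10318, 10106 and 9271 in MLN and 10446 and 8617 in MMN, against 2143, 1878 and 764 in ILN. HCF173, needed to translate a core protein of photosystem II, had 5223, 5405 and 5034 in MLN and 4509 and 3196 in MMN, against 301, 823 and 648 in ILN. FTSH8, a subunit of the thylakoid protease that clears damaged photosystem II, had 3017, 3078 and 3916 in MLN and 2941 and 2700.0 in MMN, against 334, 375 and 341 in ILN. Both MMN arrays were below the MLN arrays in HCF173 and FTSH8, while in CHUP1 the mature groups overlapped. ELIP1, a light-stress protein of the thylakoid, was the exception of the group with 3619, 4831 and 2337 in MLN and 9488 and 6434 in MMN, against 116, 313 and 361 in ILN, and both MMN arrays above all others. The markers of photosynthetic tissue measured here, RCA and PSBO1, summed to 7386 to 11572 in MLN, 9693 to 9872 in MMN and 4780.4 to 8286 in ILN, and their part in the plastid members was not tested.

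Kinases, phosphatases and metal-binding proteins (7 members) had the highest median mature signal of any role, 4946, and none was below the array median on every ILN array. HIPP25, an isoprenylated metal-binding protein, had 6396, 5838 and 3773 in MLN and 4137 and 5154 in MMN, against 321, 260.3 and 146 in ILN. The protein kinase At2g40120 had 2545, 2359 and 1980.0 in MLN and 2042 and 1885 in MMN, against 176, 129 and 97.3 in ILN, and its mature groups overlapped as those of HIPP25 did. At4g38810, a calcium-binding EF-hand protein, had 4641, 3540.5 and 6033 in MLN and 9447 and 9142 in MMN, against 339, 225 and 189.7 in ILN. At3g05640, a protein phosphatase of type 2C, had 3491, 2554 and 4174 in MLN and 7576 and 6935 in MMN, against 658, 477 and 359 in ILN. In these last 2 genes both MMN arrays stood above every MLN array.

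Stress and defence genes numbered 14. They included 3 dehydrins, hydrophilic proteins that accumulate in cold and drought. COR47 had 4397, 4425 and 8276 in MLN and 7518 and 9529 in MMN, against 394, 231 and 197 in ILN. ERD10 had 6285, 8102 and 7908 in MLN and 7766 and 9439 in MMN, against 1442, 1424 and 1147 in ILN, and ERD14 944, 1008 and 1381 in MLN and 1042 and 2883 in MMN, against 289, 171 and 181 in ILN. The second MMN array was the highest of all arrays in each of the 3 genes, and in ERD14 it was far above the first. MT1C, a metallothionein, had 8762, 9404 and 5726 in MLN and 12511 and 10604 in MMN, against 641, 336 and 238 in ILN. PA2, a secreted peroxidase, had 5423, 5936 and 4568 in MLN and 4884 and 4132 in MMN, against 411, 240.1 and 81.3 in ILN, and was 5.06 times as high on the first ILN array as on the third. Of the stress and defence members 4 had both MMN arrays above all MLN arrays and 0 had both below, beside 11.0% and 14.1% of all probe sets. EDS1, a hub of resistance signalling, had 356, 405 and 274 in MLN and 509 and 463 in MMN, against 59.2, 36.5 and 34.5 in ILN. SAG20, named for its rise in senescent leaves, had 586, 627 and 723 in MLN and 1156 and 1072 in MMN, against 123, 113 and 99.9 in ILN, and HSP70, a chaperone, 165, 223 and 265 in MLN and 117 and 257 in MMN, against 27.2, 32.5 and 34.5 in ILN.

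A further 40 single-gene members, CXE12 and EXL2 among them, were placed in no role group. Their ratio of lowest mature to highest ILN array ran between 3.10 and 16.7, and 18 were below the array median on every ILN array. At5g43150 was the brightest of them, with 7339, 7549 and 6536 in MLN and 8075 and 7204 in MMN, against 384, 774 and 376 in ILN. The 20 probe sets without a single gene had ratios between 3.10 and 8.31. One of them, shared by At1g35170 and At1g35180, which lie next to At1g35190, had 7718, 7324 and 7337 in MLN and 8615 and 5961 in MMN, against 1334, 1194 and 1351 in ILN.

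Other genes of 29 family and pathway lists, 21 of which hold a single-gene member, were set beside the members and are called relatives here. The lists were matched by gene symbol or synonym, so family genes without one, such as the MATE member At1g51340, are missing from them. Because the same arrays chose the members, the relatives left to count lack the genes with the widest separation. The 204 relatives measured took their gene names from tables not compiled by signal, although the lists were drawn up with results of these data known and each gene is represented by its brightest probe set. They were tested with limma's moderated model over all arrays, with a call at an adjusted p under 0.05 and a fold of at least 2. In MLN against ILN, 21 relatives were higher and 14 lower, which is 10.3% and 6.86%, beside 4.90% and 7.05% of all probe sets. In MMN against ILN, 29 were higher and 10 lower, 14.2% and 4.90%, beside 5.83% and 6.08%. The 2 comparisons share the ILN arrays. The shares of all probe sets include dim ones and were not matched to the relatives by signal. With the dimmer probe sets left out, calls in MLN against ILN were 2463 over all in place of 2717. Among relatives they were 30 in place of 35. In MMN against ILN they were 2442 over all in place of 2709, and 32 among relatives in place of 39. Whether relatives were called more often than other genes of like signal was not tested. Without the second MMN array the MMN against ILN count was 20 in place of 39, in a fit that takes the lone MMN array to vary like the other groups. In MMN against MLN, 3 relatives were higher and 2 lower, beside 0.550% and 0.158% of all probe sets, and that total of 5 fell to 0 without the second MMN array, where 13 relatives passed limma's unadjusted p of 0.05 and the fold. The total was 3 without the first MLN array, 3 without the third and 10 without the first ILN array.

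**Figure D4:**
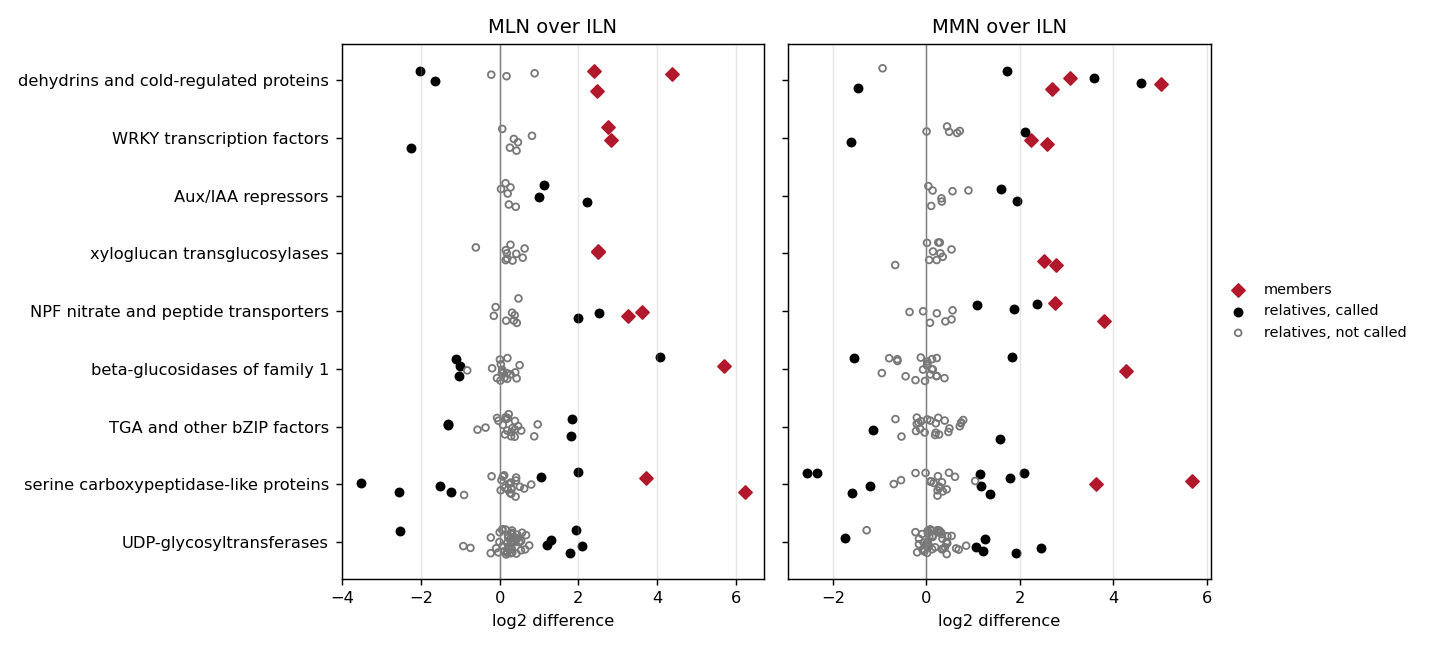
Log2 difference from ILN of MLN (left) and MMN (right) for 9 gene families, of which the Aux/IAA, bZIP and UDP-glycosyltransferase lists hold no member. Red diamonds are members, black points are relatives called by limma and open circles relatives not called, and both panels use the same ILN arrays. In MLN called relatives lie on both sides of 0 in the beta-glucosidase, bZIP, carboxypeptidase-like and UDP-glycosyltransferase families, and in MMN also among dehydrins and WRKY factors.

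Serine carboxypeptidase-like genes were called in both directions. Over all probe sets, 4.90% were higher and 7.05% lower in MLN than in ILN, and 5.83% and 6.08% in MMN. Each family count below is to be read beside those shares, which include dim probe sets, and none was tested against them. Of 27 relatives of scpl41 and scpl48, 2 were higher and 4 lower in MLN than in ILN, and 5 higher and 4 lower in MMN than in ILN. Those higher in MLN were 1 without MLN 1, MLN 2, ILN 2 or ILN 3, those higher in MMN 3 without the first MMN array and those lower in MMN 2 without the second. SCPL49 had 9620.0, 7364 and 8564 in MLN and 7953 and 6773 in MMN, against 3485, 1919.9 and 1413 in ILN, and its log2 difference of MMN from ILN was 1.80 ± 0.32 (SE, adjusted p = 0.0026 in limma). SCPL34 was the opposite, with 51.6, 72.5 and 64.9 in MLN and 135 and 149 in MMN, against 729, 806 and 630.0 in ILN, and a log2 difference of MLN from ILN of -3.53 ± 0.20 (SE, adjusted p = 1.7e-06 in limma). The mature arrays of neither gene overlapped those of ILN. The median log2 difference of the family's relatives was 0.27 in MLN and 0.25 in MMN, beside 0.17 and 0.11 for all probe sets.

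Beta-glucosidases other than BGLU17 were 22. Beside 4.90% higher and 7.05% lower of all probe sets, 1 of them was higher and 3 lower in MLN than in ILN. The count of lower genes was 0 without MLN 2 (limma, with 1 at an unadjusted p under 0.05 and the fold), 1 without MLN 1, ILN 2 or ILN 3 and 2 without MLN 3. BGLU28, the higher one, had 913, 324 and 578 in MLN and 78.0 and 177 in MMN, against 51.5, 27.8 and 25.4 in ILN, with a log2 difference of MLN from ILN of 4.07 ± 0.42 (SE, adjusted p = 6.9e-05 in limma). Like BGLU17 it stood between MLN and ILN in MMN, but MMN against MLN missed the threshold (adjusted p = 0.062 in limma). BGLU42 was lower in MLN than in ILN, by a log2 difference of -1.10 ± 0.19 (SE, adjusted p = 0.0015 in limma), a call kept in every fit but the one without the second MLN array. UDP-glycosyltransferases had no single-gene member, and of 51 measured 5 were higher and 1 lower in MLN than in ILN, the last being 3 without the first ILN array. No relative of XTH4 and XTH30 was called among 10 in either comparison with ILN, and the smallest adjusted p in MLN against ILN was 0.031 for XTH32 (limma), whose fold was under 2.

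Among WRKY genes, 7 relatives were measured. WRKY22 was lower in both mature types, with 67.7, 84.3 and 127 in MLN and 150.1 and 132 in MMN, against 438, 579.7 and 312 in ILN, at log2 differences of -2.26 ± 0.28 (SE, adjusted p = 0.00023 in limma) and -1.61 ± 0.31 (SE, adjusted p = 0.0045 in limma) in that order, and the second was lost without the second MMN array. The members WRKY17 and WRKY27 were higher in both mature types. WRKY6, which takes part in senescence, was higher in MMN than in ILN by 2.11 ± 0.27 (SE, adjusted p = 0.00034 in limma) on the log2 scale, and in MLN its fold of 1.77 was under 2. GH3.17, which like WES1 joins auxin to amino acids, had 605, 655 and 612 in MLN and 532 and 826 in MMN, against 96.0, 197 and 144 in ILN, with a log2 difference of MLN from ILN of 2.16 ± 0.27 (SE, adjusted p = 0.00021 in limma). The Aux/IAA repressors of auxin response had 3 of 9 higher in MLN and 2 in MMN, with none lower. Those in MLN were 1 without MLN 1 or ILN 3 and 2 without MLN 2, MLN 3 or ILN 2. Those in MMN numbered 2 without MMN 1, though IAA14 was then no longer among them. IAA18 led them with 557, 776 and 931 in MLN and 513 and 726 in MMN, against 119, 197 and 174 in ILN. NPF relatives of NRT1.7 and GTR2 were higher in 2 of 10 cases in MLN and 3 in MMN, that count in MMN being 1 without MMN 1 and 1 without MMN 2. At2g26690 kept its call in both with each array left out and had 192, 138 and 133 in MLN and 229.7 and 173 in MMN, against 52.3, 33.9 and 32.1 in ILN. NAC102, a relative of NAC080, was higher in MLN than in ILN by 1.28 ± 0.33 (SE, adjusted p = 0.016 in limma) on the log2 scale, a call lost without the third MLN array or the second ILN array (adjusted p up to 0.061 with 1 array left out).

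Of 5 cold-response relatives of the dehydrin members none was higher in MLN than in ILN, and 2 were lower, while in MMN 3 were higher and 1 lower. The lower genes in MLN were 1 without MLN 1, MLN 2, ILN 2 or ILN 3. LTI30, a dehydrin of cold and drought, had 47.1, 39.8 and 54.3 in MLN and 108 and 3445 in MMN, against 23.9, 24.4 and 27.4 in ILN, a log2 difference of MMN from ILN of 4.60 ± 0.98 (SE, adjusted p = 0.0073 in limma). COR15A, a chloroplast protein that protects membranes in freezing, had 417, 145 and 346 in MLN and 1241 and 6847 in MMN, against 372, 111 and 351 in ILN, a log2 difference of 3.58 ± 0.70 (SE, adjusted p = 0.0046 in limma). COR15B had 115, 107 and 149 in MLN and 248 and 889.6 in MMN, against 136, 97.9 and 214 in ILN. In all 3 the second MMN array was several times above the first, as in the member ERD14. Without that array COR15A and COR15B were no longer called, while LTI30 was. The direct differences of MMN from MLN missed the threshold for all 3 (adjusted p of 0.17, 0.06 and 0.11 in limma). At1g54410 was lower than in ILN in both mature types, a call that in MMN was lost without either MMN array, with 503, 1375 and 985 in MLN and 1186 and 1404 in MMN, against 3564, 3718 and 3444 in ILN. ELIP2, the relative of ELIP1, had 277, 1069 and 195 in MLN and 2090.0 and 1219 in MMN, against 97.7, 73.7 and 77.3 in ILN, and was called in both comparisons with ILN at log2 differences of 2.23 ± 0.50 (SE, adjusted p = 0.0077 in limma) in MLN and 4.28 ± 0.56 (SE, adjusted p = 0.00039 in limma) in MMN.

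**Figure D5:**
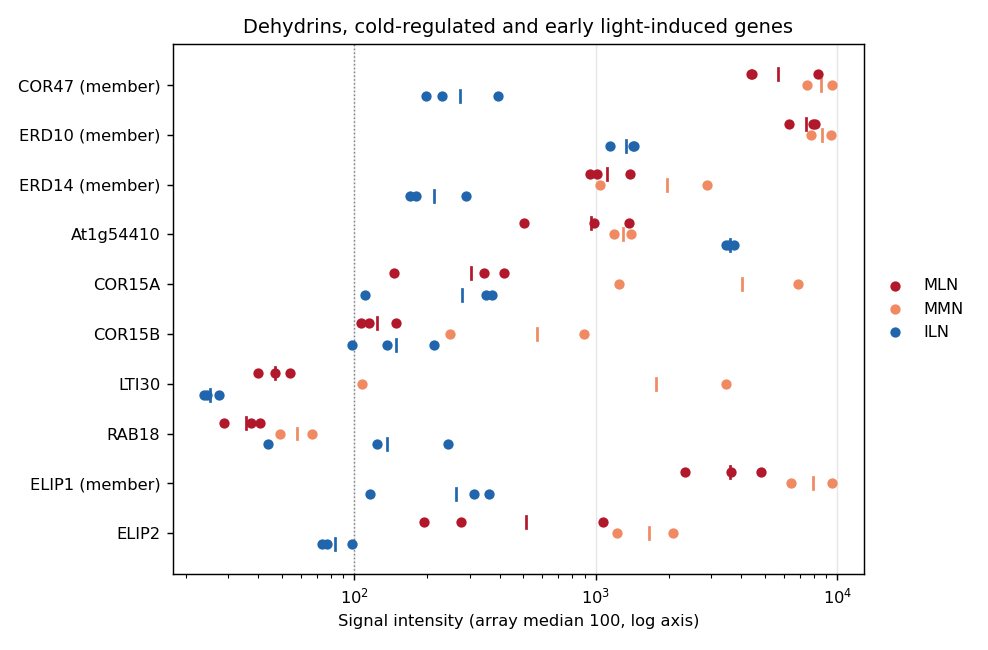
Signal on each array (log axis) of dehydrin, cold-regulated and early light-induced genes, members and relatives. Points are arrays and ticks group means of 3 MLN, 2 MMN and 3 ILN arrays, and the dotted line is the array median of 100. The MMN points of LTI30, COR15A and COR15B are far apart, and those of COR47 and ERD10 close together.

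The remaining families with a member had few relatives to count: 2 ABC, 5 acyl-activating, 2 B-box, 2 homeodomain leucine zipper and 5 senescence-associated genes. In MLN 1 ABC and 1 B-box gene were higher than in ILN and 1 acyl-activating gene lower. In MMN 1 ABC, 1 homeodomain and 2 senescence-associated genes were higher and 1 senescence-associated gene lower. ABCF5, an ABC protein, was higher in MLN than in ILN by 1.74 ± 0.33 (SE, adjusted p = 0.0032 in limma) on the log2 scale, with 2252, 1774 and 1625 in MLN and 1565 and 1236 in MMN, against 295, 713 and 831 in ILN. COL1, a B-box protein related to CONSTANS, was higher in MLN by 1.53 ± 0.46 (SE, adjusted p = 0.032 in limma), and AAE16, related to AAE11, was lower in MLN by -1.48 ± 0.44 (SE, adjusted p = 0.032 in limma). COL1 lost its call without the first or second MLN array or the first ILN array, and AAE16 without the first or second MLN or ILN array. HB40, a homeodomain leucine zipper gene like HB-1, had 139, 74.0 and 1055 in MLN and 281 and 1272 in MMN, against 52.0, 45.5 and 89.5 in ILN, and was called in MMN, though not without the second MMN or second ILN array. The senescence-associated relatives PPDK and DIN10 were called in MMN in opposite directions, PPDK higher by 1.22 ± 0.31 (SE, adjusted p = 0.017 in limma) and DIN10 lower by -1.22 ± 0.32 (SE, adjusted p = 0.02 in limma). Both lost the call without the second ILN array, PPDK also without the second MMN array and DIN10 without the first. No relative was called among the 5 R2R3 MYB factors, 2 type-A response regulators and 1 HSP70 chaperone measured. The smallest adjusted p in MLN against ILN were 0.12 for MYB50, 0.11 for ARR15 and 0.12 for Hsp70-2 (limma).

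Members lay on all 5 chromosomes, with 29, 13, 30, 18 and 35 single-gene members on chromosomes 1 to 5. Beside 25.8, 15.2, 19.9, 14.6 and 24.6% of all probe sets with 1 gene, these were 23.2, 10.4, 24, 14.4 and 28% of the single-gene members. A gene table of the TAIR10.1 assembly gave their neighbours, as the files carry no positions. Within 3 protein-coding genes of each other stood 4 pairs of members, and the number for other sets of genes was not worked out. COR47 and ERD10 are next to each other, as are At4g27657 and At4g27660, and NUDT11 and At5g45950, while At1g66110 separates At1g66100, a thionin, from AAE11. The gap gene At1g66110 had 225, 189 and 167 in MLN and 145 and 112 in MMN, against 90.1, 75.4 and 59.0 in ILN, and it was called higher in MLN at 1.38 ± 0.23 (SE, adjusted p = 0.0012 in limma) on the log2 scale.

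Genes directly beside a member, a comparison added after the values were seen, were counted in the same way. Of 117 such genes with a named probe set, 15 (12.8%) were higher and 9 (7.69%) lower in MLN than in ILN, beside the 4.90% and 7.05% of all probe sets. In MMN against ILN, 14 (12.0%) were higher and 7 (5.98%) lower, beside 5.83% and 6.08%. The shares of all probe sets include dim ones and were not matched to the neighbours by signal. With the dimmer probe sets left out, calls in MLN against ILN were 2463 over all in place of 2717. Among neighbours they were 22 in place of 24. Whether neighbours were called more often than other genes of like signal was not tested. At2g21185, beside At2g21180, had 2272, 1447 and 1426 in MLN and 773 and 719 in MMN, against 320.5, 187 and 161 in ILN, with a log2 difference of MLN from ILN of 2.98 ± 0.27 (SE, adjusted p = 3.3e-05 in limma). Like its neighbour it was lower on both MMN arrays than on every MLN array. At5g64250, beside the member EXL2, had 1026, 903 and 961 in MLN and 2012 and 2539 in MMN, against 403, 399 and 427 in ILN, and EXL2, an EXORDIUM-like protein, 1593, 1986 and 2541 in MLN and 4378 and 5637 in MMN, against 164, 162 and 264 in ILN. In both genes MMN was above MLN and MLN above ILN on every array. Hop3, the gene that stood first below the fold, is beside the SAUR gene At4g12410. At5g45960, next to At5g45950, went the other way, with 279, 202 and 203 in MLN and 278 and 251 in MMN, against 611, 1068 and 1148 in ILN. Whether neighbours share probes or transcripts was not tested.

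The immature arrays were not equal for the members. ILN 3 was the highest ILN array for 18 members (12.4%), beside 26.4% of all probe sets, and ILN 2 for 64 (44.1%), beside 28.7%. The members' median signal was 106, 115 and 78.2 on the ILN arrays. For 10 members the ILN arrays differed at least 3 times among themselves, among them AAE11, At1g78780, ADT5, PA2 and At1g51340. On the mature side MLN 3 was the lowest array for 44 members (30.3%), beside 16.1% of all probe sets.

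Nectary markers were high in every pool. SWEET9, CRC and cwINV4 together summed to 37109 to 42300.2 in MLN, 39659 to 41256 in MMN and 31842 to 40656 in ILN, and none of them was called in any comparison with ILN. Of other tissues that a dissection could carry along, the 6 pollen markers measured summed to 806 to 1030.1 in MLN, 981 to 1012 in MMN and 276 to 345 in ILN. That difference came from TUA1, a tubulin, with 689, 602 and 865 in MLN and 836 and 800.1 in MMN, against 166, 199.6 and 234 in ILN, and no other pollen marker had a mean over 100 in any group. The 3 ovule and carpel markers measured, the guard cell marker FAMA (listed as FMA) and the tapetum marker AMS summed to at most 448, 158 and 29.2 on any array. Most markers listed for these tissues were not measured here, with only 1 each for guard cells and for tapetum and anther. No phloem marker was measured, so carry-over of these tissues was not assessed in full. The part of the markers in the members' signals was not tested. The ratio of 3′ to 5′ signal of the ubiquitin control was 2.08 to 2.39 in MLN, 2.21 to 2.30 in MMN and 2.65 to 3.60 in ILN, higher on every ILN array than on any mature one. That of the GAPDH control was 2.79 to 5.73 in MLN, 2.63 to 3.18 in MMN and 1.76 to 6.93 in ILN, so its groups overlapped. The study's own quality check, made before normalization with the reference arrays, put both ratios under a bound that many of these values exceed. The ratios here come from the deposited, normalized signals, so the measures are unlike. The part of these ratios in the members' signals was not tested either. In pools of whole glands, more cells of a type and more RNA per cell cannot be told apart.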

How the data were processed

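Deposited values are linear signal intensities of 22746 probe sets, control probe sets left out. The authors made these intensity values in Genedata Expressionist, by quantile normalization alongside public reference arrays and RMA summaries (Refiner), and brought the median of each array to 100 (Analyst). Program versions: not given in the sources used here. Arrays were thereby forced to like distributions, so a change in total mRNA per gland cannot be read from them. The number of arrays, 3, 2 and 3, limits the precision. Different plants went into each replicate.

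Members were found by the fold and limit given above. The members, the gene lists and the tests were chosen with earlier results of these data known. Probe sets were named by the platform annotation and otherwise by gene tables published with the study where these gave 1 locus, a step taken after the annotation held here named 57 members. Relatives came from 29 family and pathway lists, with 1 probe set per gene, the one with the highest mean, and only where a table not compiled by signal named it.

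Relatives and neighbours were tested on log2 signals with limma 3.58.1 in R 4.3.3 (trended variance, all 8 arrays, Benjamini-Hochberg adjustment over 22746 probe sets). A call needed an adjusted p under 0.05 and a fold of 2. The code was tested on simulated data. Alternatives were other folds and limits, a new quantile normalization, a signal of 50 added, the dimmer probe sets left out, the methods' t-test, a replicate block and arrays left out. Tables were made with Python 3.11.15, pandas 2.3.3 and numpy 2.4.6, and figures with matplotlib 3.10.9.

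The genes named by rule were the 12 members with the largest ratio, up to 4 members of each list, those nearest the threshold, the 3 highest and 3 lowest ratios of MMN to MLN, the 5 brightest, and from each list the relative with the smallest adjusted p in each direction in MLN against ILN. All other genes in the text were chosen after their values were seen, among them IAA18, COR15A, COR15B and the neighbours. Arrays of MLN and ILN with the same replicate number deviated together from their group means (correlations of 0.338, 0.241 and 0.211). For MMN only the difference between its 2 arrays could be compared, with correlations of 0.0272 with MLN and -0.0481 with ILN. The labels name no batch, so whether MMN pools share one with lateral pools of the same number cannot be told.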

Additional observations from a re-analysis of the deposited data

How the results depend on the processing

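The number of members, 145, was 374 with a fold of 2, 51 with a fold of 5 and 95 with 50 added to every signal. It was 131 with a limit of 2 on the mature means, 150 with no limit, 136 when the arrays were quantile-normalized again, 144 with the dimmer probe sets left out, and 143 to 182 with 1 array left out. Relatives called in MLN against ILN, 35 in the limma fit, were 6 by the methods' t-test after Benjamini-Hochberg adjustment (2 higher and 4 lower, against 21 higher and 14 lower in limma) and 28 to 37 with 1 array left out. In MMN against ILN they were 39, 4 by that t-test and 20 to 42 with 1 array left out. In MMN against MLN they were 5, 11 with the replicate number as a block, 0 by the t-test after adjustment and 7 at its unadjusted p under 0.05, and 0 to 10 with 1 array left out. Under the replicate block the counts against ILN were 36 in MLN and 39 in MMN. Genes next to a member, 24 in MLN against ILN and 21 in MMN against ILN, were 6 and 2 by the t-test and 21 to 30 and 17 to 25 with 1 array left out. The t-test was run on linear signals, and limma on log2 signals. It pools its spread gene by gene over the arrays of the 2 groups compared, and MMN has only 2. A search for promoter motifs was not run. Signals near the lower end of the arrays bound how large a fold can be measured.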
